A study of Mus musculus with 6 samples.

Results

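The genes described here encode the ligands of the tumour necrosis factor (TNF) family, their receptors and the TRAF adaptor proteins. Members were taken by gene symbol, as every probe whose current symbol begins with Tnfsf or Tnfrsf and a number, is one of Traf1 to Traf7, or is Tnf, Lta, Ltb, Ltbr, Cd40, Cd40lg, Cd27, Cd70, Fas, Fasl, Ngfr or Eda2r. The rule found 46 genes among 16390 named genes, each with 1 probe of the 23473 in the table: 15 ligands, 25 receptors and 6 TRAFs. The rule reads gene symbols and no intensity, but members and lists were chosen with earlier results of these data known. Tnfrsf13c, Tnfsf12, Tnfsf18 and Traf5, and the non-coding RNA Tnfsf13os, also match the rule and were not analysed here.

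RNA came from CH12F3-2A cells, a mouse line derived from a B cell lymphoma that switches to IgA when it is stimulated. In 3 samples the cells had been electroporated with a control siRNA (siControl) and in 3 with an siRNA against Spt6 (siSpt6), a histone chaperone of transcription elongation encoded by Supt6. All 6 samples received CD40L, IL4 and TGFb (together CIT) 24 h after transfection and were cultured for a further 24 h, so both groups had a TNF family ligand added to the medium and neither shows the unstimulated level. The line is a single tumour line, and whether replicates were independent cultures is not stated, so the p-values rest on variation among arrays that may be purely technical.

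TNF family ligands are mostly membrane proteins that act as trimers, on the cell that makes them, on neighbouring cells or after release. Their receptors fall into those with a death domain, which can assemble caspase-activating complexes, and those that recruit TRAF proteins, which pass the signal to the NF-kB and MAP kinase pathways. In B cells CD40 and the receptors for BAFF and APRIL support survival, proliferation and class switching, and activated B cells also make TNF family ligands themselves, among them lymphotoxins, CD70 and 4-1BB ligand.

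Each value is the brightness of 1 probe on 1 array, in arbitrary units on a linear scale, and array medians differed by at most 0.00109 log2 units. A change is the log2 difference siSpt6 minus siControl, tested with limma over 21584 probes and called where the Benjamini-Hochberg adjusted p was under 0.05, which held for 16.3% of probes (7.43% higher and 8.90% lower in siSpt6). Between 21526 and 22372 probes had a value on any 1 array, and the number of arrays limits the precision. The siRNA's target, Supt6, read 33.1, 32.1 and 32.1 in siControl and 25.1, 21.8 and 28.1 in siSpt6, groups that did not overlap, but its difference of -0.38 (SE 0.13) did not pass the threshold (limma adjusted p = 0.0973). The cells' identity was checked with marker lists. Of 9 B cell markers 8 had a probe, all brighter on average than the array median, and their summed intensity was 34468 to 39340 in siControl and 35768 to 39204 in siSpt6, with Cd79b called higher and Cd22 called lower. Of 3 plasma cell markers with a probe, Xbp1 was called lower and Prdm1 and Sdc1 were dim, and the sum was 1426 to 1637 in siControl and 1081 to 1243 in siSpt6. The 8 T cell markers summed to 47.9 to 67.5 in siControl and 51.6 to 57.2 in siSpt6, with Cd2 blank on every array, and none of the T cell, macrophage, NK cell or granulocyte markers was called (limma, 1 at an unadjusted p under 0.05, Itgam). The part of any shift in cell state in the results below was not tested, and in bulk RNA fewer cells making a transcript and less of it per cell cannot be told apart.

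More than 1 in 2 tested ligand genes fell in siSpt6, while most receptor genes and every TRAF gene on the array stayed short of the threshold. Of 43 tested members 9 fell and 1 rose, where 9.65% of the 15224 tested genes fell and 7.40% rose. Of the 41 members with a value on every array, 12 had all siSpt6 values under all siControl values, where 20.4% of such probes did, and 2 had them all above, where 16.9% did. By role, 7 of 13 tested ligands fell (53.8%) and 0 rose, 2 of 24 receptors fell (8.33%) and 1 rose, and 0 of 6 TRAFs passed the test (limma, also 0 at an unadjusted p under 0.05). The median log2 difference was -0.82 over the ligands, -0.04 over the receptors and -0.15 over the TRAFs, and -0.00 over all tested genes. Called genes were more frequent among bright probes. Of the 6 tested ligands at or above the median level of tested probes 5 fell, where 15.2% of all such genes fell, and of the 6 TRAFs, all of them at or above it, none was called, where 23.6% of such genes were. The ligand median stayed lower after quantile normalization (-0.68) and cyclic loess (-0.73), each of which kept the counts of 7 ligands and 2 receptors that fell. These normalizations matter for the background, since 45.5% of all called probes were higher in siSpt6 in the deposited values and 57.3% after quantile normalization. Whether ligands differ from receptors was not tested, since genes are not replicates.

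**Figure D1:**
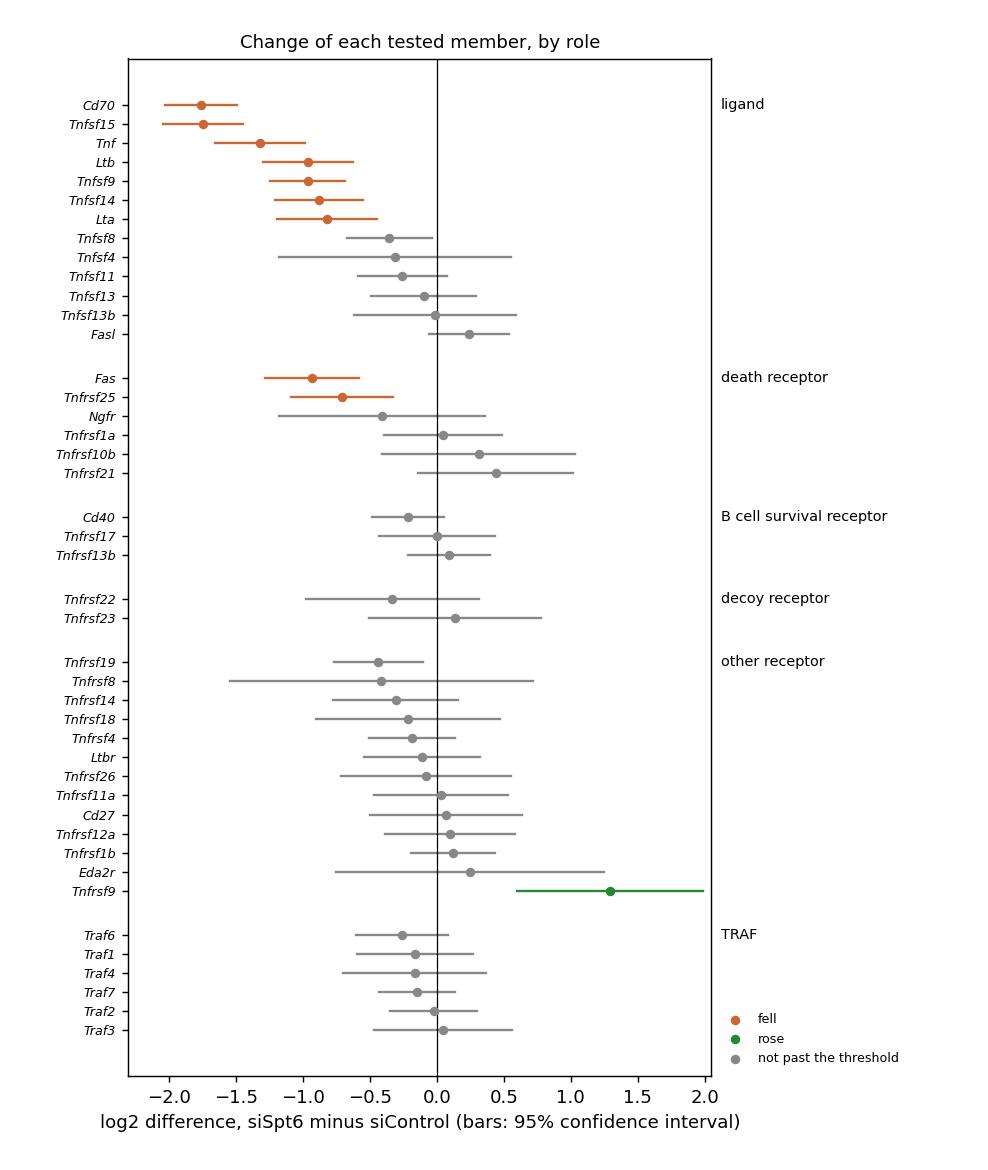
Log2 difference siSpt6 minus siControl of each of the 43 tested members, grouped by role, with bars for limma's 95% confidence interval (n = 3 arrays per group). The 7 orange ligands lie between -1.76 (Cd70) and -0.82 (Lta), 2 death receptors are orange, and Tnfrsf9 alone is green. The 6 TRAFs, none called, lie between -0.26 and 0.05.

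Cd70 and Tnfsf15 had the most negative log2 differences of the members, and their order turned after quantile normalization (-1.64 for Cd70 and -1.79 for Tnfsf15) and cyclic loess (-1.65 and -1.83), among other settings. Cd70 encodes the ligand of CD27 and is induced on activated B cells. In siControl Cd70 read 514, 518 and 529.6, and in siSpt6 it read 142, 157 and 163. Its groups were tight and far apart, with means of 521 ± 8.04 and 154 ± 10.6 (intensity ± SD, n = 3 each), a 3.38-fold fall (log2 difference -1.76, SE 0.11, limma adjusted p = 0.000568). Only 0.25% of all tested genes had a more negative log2 difference. Tnfsf15, which encodes TL1A, a ligand of the death domain receptor DR3, read 26.0, 25.5 and 21.9 in siControl and 7.36, 6.79 and 7.70 in siSpt6. It fell 3.35-fold (log2 difference -1.75, SE 0.13, limma adjusted p = 0.00067). Its probe was dim in both groups, and with a pseudocount of 2.66 the log2 difference was -1.45, still past the threshold (limma adjusted p = 0.000113).

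The genes for TNF and the lymphotoxins fell together. Tnf, the founding cytokine of the family, read 79.0, 74.3 and 85.5 in siControl and 30.3, 28.8 and 37.1 in siSpt6, a 2.49-fold fall (log2 difference -1.32, SE 0.14, limma adjusted p = 0.0022). Ltb, the membrane anchor of the lymphotoxin heterotrimer that signals for lymphoid organ structure, read 1902, 2235 and 1864 in siControl and 911, 1152 and 1022 in siSpt6. Its means were 2000.2 ± 204 and 1028 ± 121 (intensity ± SD, n = 3 each), a 1.95-fold fall (log2 difference -0.96, SE 0.14, limma adjusted p = 0.0064). The Ltb difference was smaller after quantile normalization, at -0.68 (limma adjusted p = 0.0175). Every siSpt6 array was lower than every siControl array for both genes. Lta, the soluble lymphotoxin and the partner of Ltb in the heterotrimer, read 24.1, 24.9 and 27.6 in siControl and 13.9, 12.4 and 17.5 in siSpt6 (log2 difference -0.82, SE 0.16, limma adjusted p = 0.0159). Its call was lost without siSpt6 replicate 1 (log2 difference -0.79, limma adjusted p = 0.0515).

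Tnfsf9 and Tnfsf14 also fell by a little under 1 log2 unit. Tnfsf9 encodes 4-1BB ligand, a costimulator of T cells, and read 348, 381 and 320.4 in siControl and 174, 185 and 178 in siSpt6. The means were 349.7 ± 30.3 and 179 ± 5.60 (intensity ± SD, n = 3 each), a 1.95-fold fall (log2 difference -0.96, SE 0.12, limma adjusted p = 0.00354). Tnfsf14 encodes LIGHT, which binds HVEM and the lymphotoxin beta receptor. It read 50.9, 46.0 and 40.6 in siControl and 27.7, 23.6 and 23.6 in siSpt6, a 1.84-fold fall (log2 difference -0.88, SE 0.14, limma adjusted p = 0.00791). Neither gene's groups overlapped.

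**Figure D2:**
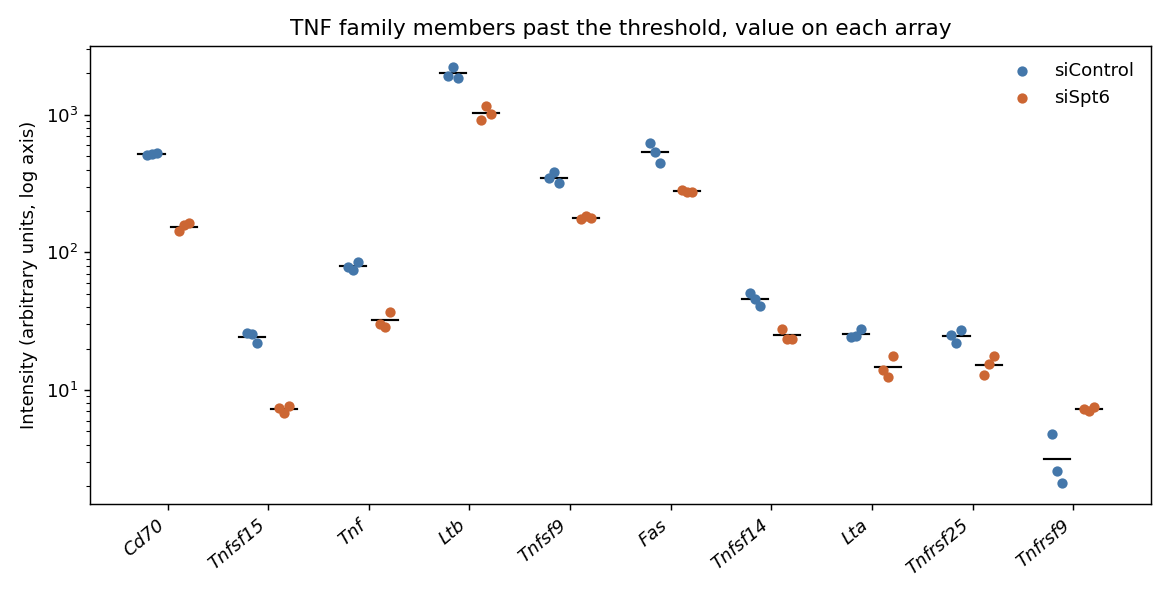
Intensity on each array (arbitrary units, log axis) of the 9 members that fell, in order of their log2 difference, and of Tnfrsf9, which rose; points are arrays and black lines are group means (n = 3). The siSpt6 points of Cd70 lie between 142 and 163 and its siControl points between 514 and 529.6, and no gene shown has overlapping groups.

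The other 6 tested ligands did not pass the threshold. Tnfsf8, which encodes CD30 ligand, came closest: it read 33.4, 35.5 and 35.1 in siControl and 26.2, 31.4 and 24.3 in siSpt6 (log2 difference -0.35, SE 0.13, limma adjusted p = 0.127). Its groups did not overlap. Tnfsf11, the gene of the osteoclast factor RANKL, read 43.5, 46.4 and 46.4 in siControl and 32.9, 37.9 and 44.2 in siSpt6, with overlapping groups (log2 difference -0.26, limma adjusted p = 0.281). Fasl, the ligand of the death receptor Fas, was dim at 14.0, 14.1 and 14.0 in siControl and 15.0, 16.2 and 18.8 in siSpt6 (log2 difference 0.24, limma adjusted p = 0.258). Tnfsf13b and Tnfsf13, which encode the B cell survival factors BAFF and APRIL, and Tnfsf4, which encodes OX40 ligand, lay between 1.34 and 13.2 on every array that gave a value, with log2 differences of -0.01, -0.10 and -0.31. Cd40lg was blank on all 6 arrays, although CD40 ligand protein was part of the stimulus, and Tnfsf10, the gene of TRAIL, had values on only 3 arrays, from 1.16 to 2.16, so neither was tested.

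Of the 7 ligand genes that fell 6 lie on chromosome 17, in 2 clusters, a property the rule did not use. In the RefSeq order of protein-coding genes (assembly GRCm38.p6, used for gene order only, since no source used here gives the build of the array's design), Ltb, Tnf and Lta lie side by side on chromosome 17. Tnfsf9, Cd70 and Tnfsf14 lie side by side elsewhere on the same chromosome. These 6 are all the tested ligands on chromosome 17, and all 6 fell; of the 7 tested ligands on other chromosomes 1 fell, Tnfsf15 on chromosome 4. The other 3 tested members on chromosome 17, Tnfrsf12a, Tnfrsf21 and Traf7, were not called. Over the 704 tested genes of chromosome 17, 7.39% fell and 7.39% rose.

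No gene next to these clusters was called lower. The 5 nearest tested protein-coding genes on each side of both chromosome 17 clusters, 20 in all, held 0 falls and 5 rises (limma, 0 lower at an unadjusted p under 0.05). Over all tested genes of chromosome 17, 7.39% fell and 7.39% rose. So 0 falls among 20 is near the background, while 5 rises among 20 is above it, a difference that was not tested. Beside Ltb the macrophage gene Aif1 rose (log2 difference 0.62, limma adjusted p = 0.0392), and beside Lta the gene Nfkbil1 had a difference of 0.02 (limma adjusted p = 0.925) while Atp6v1g2, a proton pump subunit, rose (0.76, limma adjusted p = 0.00816). The 5 macrophage markers on the array summed to 236 to 283 in siControl and 269 to 349 in siSpt6, and their part in the Aif1 result was not tested. On either side of the Tnfsf9 cluster, the tubulin gene Tubb4a had a difference of 0.02 (limma adjusted p = 0.951) and the complement gene C3 a difference of 0.95 (limma adjusted p = 0.0586). Dennd1c and Gpr108, in turn the second tested gene before and the third after that cluster, rose by 0.62 and 0.78 (limma adjusted p = 0.0226 and 0.0236), and so did Apom, the fourth before Ltb (1.40, limma adjusted p = 0.0387). On chromosome 4 Tnfsf15 stands next to Tnfsf8, and of the 10 genes around this pair 0 fell and 0 rose (limma, 2 lower at an unadjusted p under 0.05, Trim32 and Tmem268). Over the 893 tested genes of chromosome 4, 9.295% fell and 6.831% rose, so counts of 0 among 10 are near the background. The neighbours were looked up after the ligands' values were seen.

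**Figure D3:**
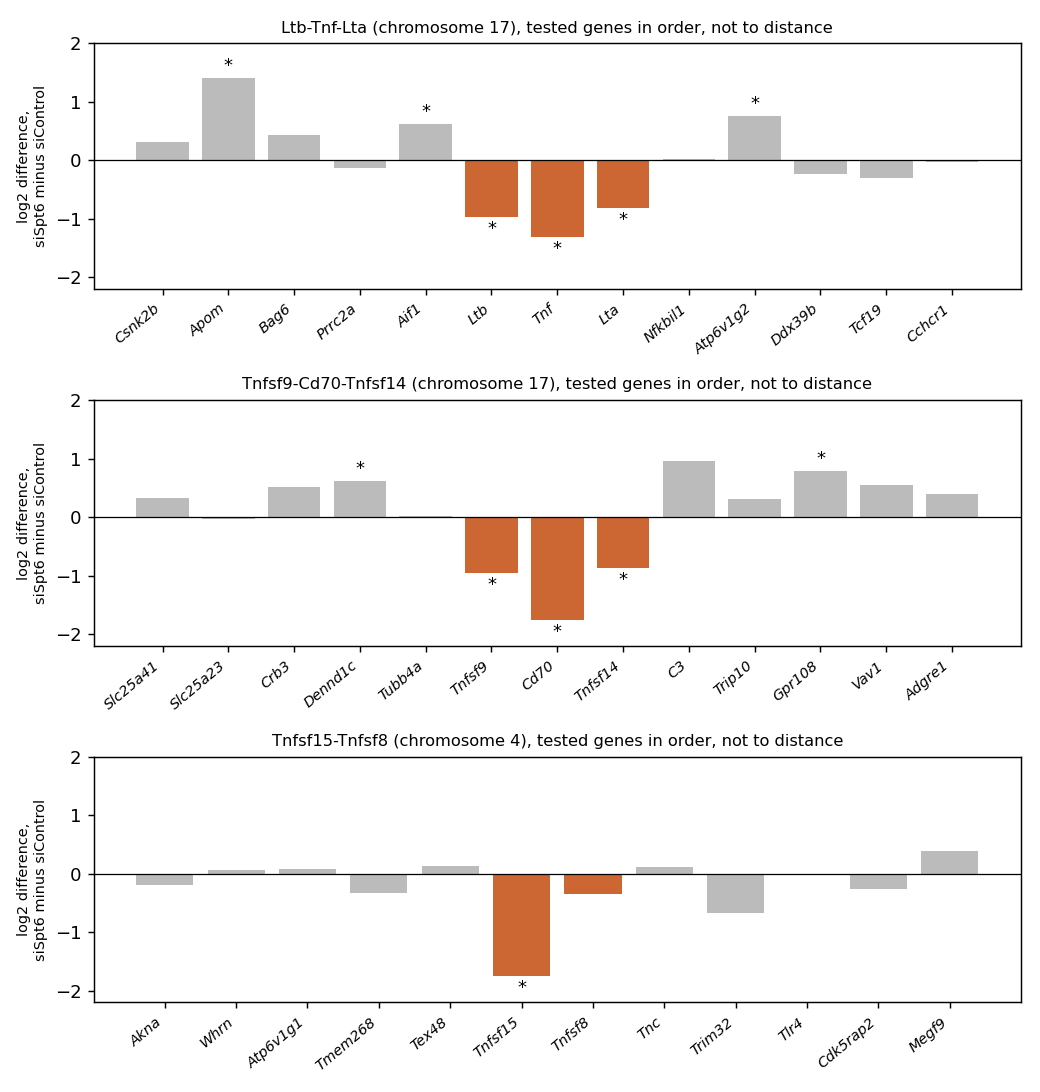
Log2 difference siSpt6 minus siControl of the ligand genes (orange) and of the 5 nearest tested protein-coding genes on each side (grey), in gene order and not to distance; stars mark genes past the threshold. In the upper and middle panels the 3 ligands of each chromosome 17 cluster point down between -0.82 and -1.76, with no starred grey bar below 0.

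Promoter windows of 6 called members, 5 that fell and 1 that rose, are shown to let their letters be compared. Of the 46 members, 37 have an entry in the RefSeq promoter table, with windows of 250 bases before to 50 bases after the annotated start. Capitals mark matches, on either strand, to the 10-letter NF-kB consensus, to the AP-1 letters TGANTCA (the same on both strands) and to the TATA letters TATAAA. The 6 were chosen after values and matches were seen, and each holds a match. Cd70 and Tnfsf9 have no entry in the table, and the windows of Tnfsf15 and Tnfrsf25 hold no match to any of the 3 patterns. The first 4 belong to ligands that fell on chromosome 17, the fifth to the receptor Fas, which fell, and the last to Tnfrsf9, the only member that rose.
Ltb promoter, chr17:35194257-35194556, + strand: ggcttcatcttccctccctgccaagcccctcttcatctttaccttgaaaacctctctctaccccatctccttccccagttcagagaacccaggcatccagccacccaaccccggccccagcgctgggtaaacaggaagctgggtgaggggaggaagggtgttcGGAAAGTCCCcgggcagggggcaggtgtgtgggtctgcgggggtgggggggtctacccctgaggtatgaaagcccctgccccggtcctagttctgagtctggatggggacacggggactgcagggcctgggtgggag
Tnf promoter, chr17:35201958-35202257, - strand: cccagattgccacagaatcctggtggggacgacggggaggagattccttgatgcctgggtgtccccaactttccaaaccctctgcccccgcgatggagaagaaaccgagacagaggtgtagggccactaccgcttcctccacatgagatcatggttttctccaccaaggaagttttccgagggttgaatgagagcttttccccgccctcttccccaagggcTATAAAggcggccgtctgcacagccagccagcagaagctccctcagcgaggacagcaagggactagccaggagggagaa
Lta promoter, chr17:35205302-35205601, - strand: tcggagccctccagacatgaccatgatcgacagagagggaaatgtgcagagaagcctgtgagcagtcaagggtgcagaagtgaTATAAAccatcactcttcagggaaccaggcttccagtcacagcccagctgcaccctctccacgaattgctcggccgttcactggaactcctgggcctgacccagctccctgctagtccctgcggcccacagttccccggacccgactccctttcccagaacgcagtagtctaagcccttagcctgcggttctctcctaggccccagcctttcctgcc
Tnfsf14 promoter, chr17:57194132-57194431, - strand: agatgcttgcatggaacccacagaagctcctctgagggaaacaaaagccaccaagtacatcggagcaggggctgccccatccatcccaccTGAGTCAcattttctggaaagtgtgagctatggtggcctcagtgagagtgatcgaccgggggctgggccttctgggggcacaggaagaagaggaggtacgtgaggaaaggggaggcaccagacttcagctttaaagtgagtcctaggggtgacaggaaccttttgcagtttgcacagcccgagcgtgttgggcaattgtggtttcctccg
Fas promoter, chr19:34290409-34290708, + strand: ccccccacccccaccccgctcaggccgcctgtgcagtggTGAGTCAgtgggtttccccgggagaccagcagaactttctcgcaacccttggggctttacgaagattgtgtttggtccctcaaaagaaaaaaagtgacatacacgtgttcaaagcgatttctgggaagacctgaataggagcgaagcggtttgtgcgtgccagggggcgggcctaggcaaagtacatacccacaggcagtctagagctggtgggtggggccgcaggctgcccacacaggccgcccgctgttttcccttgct
Tnfrsf9 promoter, chr4:150927749-150928048, + strand: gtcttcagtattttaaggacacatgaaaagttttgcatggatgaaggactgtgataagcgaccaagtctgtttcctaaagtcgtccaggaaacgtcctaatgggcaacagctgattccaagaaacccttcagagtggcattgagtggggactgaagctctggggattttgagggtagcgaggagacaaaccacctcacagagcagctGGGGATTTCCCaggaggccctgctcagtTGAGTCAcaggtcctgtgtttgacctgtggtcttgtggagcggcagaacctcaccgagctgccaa
None of the 3 patterns searched is in all 6 windows, and no other pattern was searched. The Ltb window has an NF-kB match that begins 87 bases before the start, and Tnf has TATAAA beginning 29 bases before it. Lta has TATAAA much farther upstream, 167 bases before the start, and Tnfsf14 and Fas each have an AP-1 match. The window of Tnfrsf9 has overlapping NF-kB matches on both strands, beginning 43 and 42 bases before the start, and an AP-1 match. Over all 32851 promoter windows of this length, 4.51% held the NF-kB consensus, 7.81% the AP-1 letters and 13.6% TATAAA. Of the 37 members, which have 41 windows, 4, 6 and 6 in turn held a match. A member with several windows was counted once, so the units differ from those of the background. Besides Ltb and Tnfrsf9, the NF-kB match stood at Tnfrsf8 and Traf3, which were not called. A match is only a run of letters.

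Of 6 receptors with a death domain 2 fell, the only falls among receptors, where 9.65% of all tested genes fell. Fas, the receptor through which T cells kill activated B cells, read 624, 535 and 447 in siControl and 284, 274 and 275 in siSpt6. The siControl values were spread and the siSpt6 values close together, at 535 ± 88.4 and 278 ± 5.97 (intensity ± SD, n = 3 each), a 1.91-fold fall (log2 difference -0.93, SE 0.15, limma adjusted p = 0.00795). Tnfrsf25, which encodes DR3, read 25.1, 21.9 and 27.3 in siControl and 12.8, 15.4 and 17.6 in siSpt6 (log2 difference -0.70, SE 0.16, limma adjusted p = 0.0283). The Tnfrsf25 call was lost without siControl replicate 1 or 3 or siSpt6 replicate 1 or 2, at limma adjusted p of 0.0789, 0.0771, 0.0720 and 0.0764 in turn. The other death domain receptors were dim and not called. Tnfrsf1a, the main TNF receptor, lay between 8.23 and 12.4 on the 6 arrays, and Tnfrsf10b (the mouse TRAIL receptor), Tnfrsf21 (DR6) and Ngfr (the neurotrophin receptor p75) lay between 2.16 and 11.1, with log2 differences of 0.05, 0.31, 0.44 and -0.41.

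The receptors that support B cell survival did not pass the threshold. Cd40, the receptor for the CD40 ligand in the stimulus, read 998, 1032 and 956 in siControl and 801, 922 and 858 in siSpt6. The groups did not overlap, with means of 996 ± 38.1 and 859.9 ± 60.6 (intensity ± SD, n = 3 each), and the ratio of 0.863 had a 95% interval from 0.715 to 1.04 (limma adjusted p = 0.269). After quantile normalization the Cd40 difference was -0.0024. Tnfrsf13b, which encodes TACI, a receptor of BAFF and APRIL, read 918, 953 and 807 in siControl and 921, 1046 and 887 in siSpt6. Its groups overlapped, and the ratio of 1.07 had a 95% interval from 0.862 to 1.32 (limma adjusted p = 0.687). The Tnfrsf13b log2 difference was 0.31 after quantile normalization, also short of the threshold (limma adjusted p = 0.164). Tnfrsf17, the plasma cell receptor BCMA, was dim in both groups, between 4.73 and 6.68.

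Of the 13 receptors outside the death domain, B cell survival and decoy groups 1 rose, near the 7.40% of all tested genes that did. Tnfrsf9, which encodes the costimulatory receptor 4-1BB, was very dim at 4.82, 2.59 and 2.11 in siControl and read 7.33, 7.07 and 7.50 in siSpt6 (log2 difference 1.29, SE 0.29, limma adjusted p = 0.0271). All siSpt6 arrays lay above all siControl arrays, but the level is one at which no detection limit is known. With a pseudocount of 2.66 the log2 difference was 0.80. The call was lost without siControl replicate 2 or 3 or without any 1 siSpt6 replicate (limma adjusted p between 0.0559 and 0.0788). Tnfrsf19, the orphan receptor TROY, came nearest to a fall at 19.1, 17.5 and 20.2 in siControl and 12.0, 15.2 and 15.0 in siSpt6 (log2 difference -0.44, limma adjusted p = 0.0822).

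The brighter receptors of this group had overlapping groups throughout. Tnfrsf1b, the TNF receptor of lymphocytes, read 169, 161 and 146 in siControl and 159, 196 and 164 in siSpt6 (log2 difference 0.12). Ltbr, the receptor of the lymphotoxin heterotrimer and LIGHT, read 50.6, 37.5 and 35.1 in siControl and 43.7, 33.2 and 36.6 in siSpt6 (-0.11). Tnfrsf4, which encodes OX40, read 66.0, 54.2 and 56.3 in siControl and 51.8, 47.2 and 56.6 in siSpt6 (-0.18). These 3 receptors bind ligands of the family that activated lymphocytes make. Tnfrsf18, which encodes GITR, read 52.0, 47.2 and 38.9 in siControl and 49.2, 24.8 and 50.1 in siSpt6 (-0.21). Tnfrsf12a, the TWEAK receptor, read 58.8, 74.7 and 57.3 in siControl and 55.2, 63.9 and 87.7 in siSpt6 (0.10). Low or high single arrays set the spread of both genes, siSpt6 replicate 2 for Tnfrsf18 and siSpt6 replicate 3 for Tnfrsf12a, and leaving out that array turned the sign of each difference. Tnfrsf26 read 36.6, 44.2 and 28.1 in siControl and 38.4, 42.4 and 23.5 in siSpt6 (-0.08), and its decoy relative Tnfrsf23 read 109.5, 64.0 and 58.9 in siControl and 102, 67.8 and 79.5 in siSpt6 (0.14). The remaining receptors with a test were dim: Cd27, Eda2r, Tnfrsf11a, Tnfrsf14, Tnfrsf22 and Tnfrsf8 lay between 1.58 and 17.5, with log2 differences from -0.41 to 0.25, none called. Tnfrsf11b, the soluble decoy osteoprotegerin, had a value on 1 array only and was not tested.

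The TRAF genes, whose products dock on the cytoplasmic tails of these receptors, gave overlapping groups for all 6 members. Traf1, an NF-kB-induced adaptor without a RING domain, read 142, 163 and 127 in siControl and 111, 116 and 161 in siSpt6, a ratio of 0.893 (95% interval 0.661 to 1.21). Traf2, a core adaptor of TNF and CD40 signalling, read 275, 257 and 279.7 in siControl and 238, 257 and 308 in siSpt6, a ratio of 0.984 (0.787 to 1.23). Traf3, which holds back non-canonical NF-kB signalling in B cells, read 118, 141 and 174 in siControl and 127, 131 and 193 in siSpt6, a ratio of 1.03 (0.723 to 1.48). The interval of Traf2 is the narrowest of these 3 and that of Traf3 the widest. Traf4 read 121, 158 and 165 in siControl and 123, 104 and 176 in siSpt6, a ratio of 0.893 (0.616 to 1.29). Traf6, which also serves Toll-like receptors, read 58.2, 51.0 and 50.1 in siControl and 51.1, 38.9 and 43.8 in siSpt6, a ratio of 0.837 (0.660 to 1.06). Traf7 read 297, 249 and 269 in siControl and 254, 238 and 244 in siSpt6, a ratio of 0.904 (0.744 to 1.10). Limma adjusted p for the 6 genes was between 0.289 (Traf6) and 0.937 (Traf2), and the sign of the Traf2 difference changed after quantile and cyclic loess normalization (0.07 and 0.08).

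Set side by side, most ligands that fell had receptors on the same arrays that were not called. Cd70 fell with a log2 difference of -1.76 and its receptor gene Cd27 had 0.07. Ltb and Tnfsf14 fell and their shared receptor gene Ltbr had -0.11, while Tnfrsf14, the gene of the other LIGHT receptor HVEM, had -0.30 (limma adjusted p = 0.359). Tnf and Lta fell while Tnfrsf1a and Tnfrsf1b had 0.05 and 0.12. The pair Tnfsf15 and Tnfrsf25 fell on both sides, at -1.75 and -0.70. Tnfsf9 fell at -0.96 where its receptor gene Tnfrsf9 rose at 1.29, and Fas fell at -0.93 where Fasl had 0.24. Of these genes Cd27, Tnfrsf1a, Tnfrsf14, Tnfrsf25, Tnfrsf9, Fasl, Lta and Tnfsf15 lay under the median level of tested probes. The Tnfrsf9 call was lost on leaving out most single arrays. No difference between a ligand and its receptor was tested.

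The other genes of the pathway moved in both directions. Of 48 genes listed as signalling partners 45 had a probe, and 6 fell and 5 rose, 24.4% in all, where 17.0% of all tested genes and 23.6% of those at or above the median level were called. The partners' share is thus near the background of genes as bright, and their median log2 difference was 0.02. Ccl22, a chemokine gene induced by CD40 in B cells, was the lowest, with 7150.1 ± 575 (SD, n = 3) in siControl against 1893 ± 190.5 in siSpt6, a 3.78-fold fall (limma adjusted p = 0.000655). Cflar, which encodes cFLIP, the inhibitor of caspase 8 at death receptors, fell 2.33-fold from 122 ± 6.54 to 52.4 ± 1.17 (limma adjusted p = 0.0013). A dimmer second Cflar probe read 42.6, 56.8 and 41.4 in siControl and 34.6, 38.2 and 51.2 in siSpt6, with overlapping groups, and the mean of both probes gave a log2 difference of -0.71. Casp8 rose 1.43-fold from 506 ± 28.2 to 725 ± 35.7 (limma adjusted p = 0.0242), and its call did not survive the removal of any single array (limma adjusted p 0.0513 to 0.0769).

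Regulators of ubiquitin chains at the receptors held 3 falls and 1 rise among 10 measured, 9 of them at or above the median level. Over all tested genes 9.65% fell and 7.40% rose, and of those at or above that level 15.2% fell and 23.6% were called. Birc3, the TRAF2-bound ligase cIAP2, fell 1.51-fold from 503 ± 33.6 to 332 ± 2.74 (limma adjusted p = 0.014). Rnf31, the catalytic subunit of the linear ubiquitin ligase, fell 1.52-fold and Tnfaip3, the editing enzyme A20, fell 1.43-fold, while the deubiquitinase Cyld rose 1.43-fold (limma adjusted p = 0.0337, 0.0379 and 0.0369). All 3 calls were fragile to single arrays. Rnf31 lost its call without any array but siSpt6 replicate 3, Tnfaip3 without any but siControl replicate 2, and Cyld without any but siControl replicate 3 (limma adjusted p up to 0.0975, 0.102 and 0.107). Quantile normalization took Tnfaip3 short of the threshold (limma adjusted p = 0.0663), and likewise Tnfaip2, a TNF-induced gene that fell 1.41-fold (limma adjusted p = 0.0435, and 0.0628 after it). Tnfaip2 lost its call without any array but siSpt6 replicate 1 (limma adjusted p up to 0.115).

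Of 9 NF-kB subunits and inhibitors, all at or above the median level, 1 was called. The share called was 17.0% of all tested genes and 23.6% of those at or above that level. Rel, the subunit most tied to B cell activation, rose 1.58-fold from 175 ± 9.19 to 279 ± 41.9 (limma adjusted p = 0.0228), a call lost without any 1 siControl array (limma adjusted p up to 0.0645). Nfkbia, the classical NF-kB-induced inhibitor, read 3616 ± 254 in siControl and 2700.3 ± 123 in siSpt6 (log2 difference -0.42, limma adjusted p = 0.0520). Tab2, an adaptor of the TAK1 kinase, read 214, 179 and 207 in siControl and 352, 309.8 and 306 in siSpt6, a 1.62-fold rise (limma adjusted p = 0.014), and Tifa, which binds TRAF6, rose 1.65-fold from 24.5 ± 2.58 to 40.3 ± 2.52 (limma adjusted p = 0.0116). Map3k5, Map3k14 and Otulin were not analysed here.

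**Figure D4:**
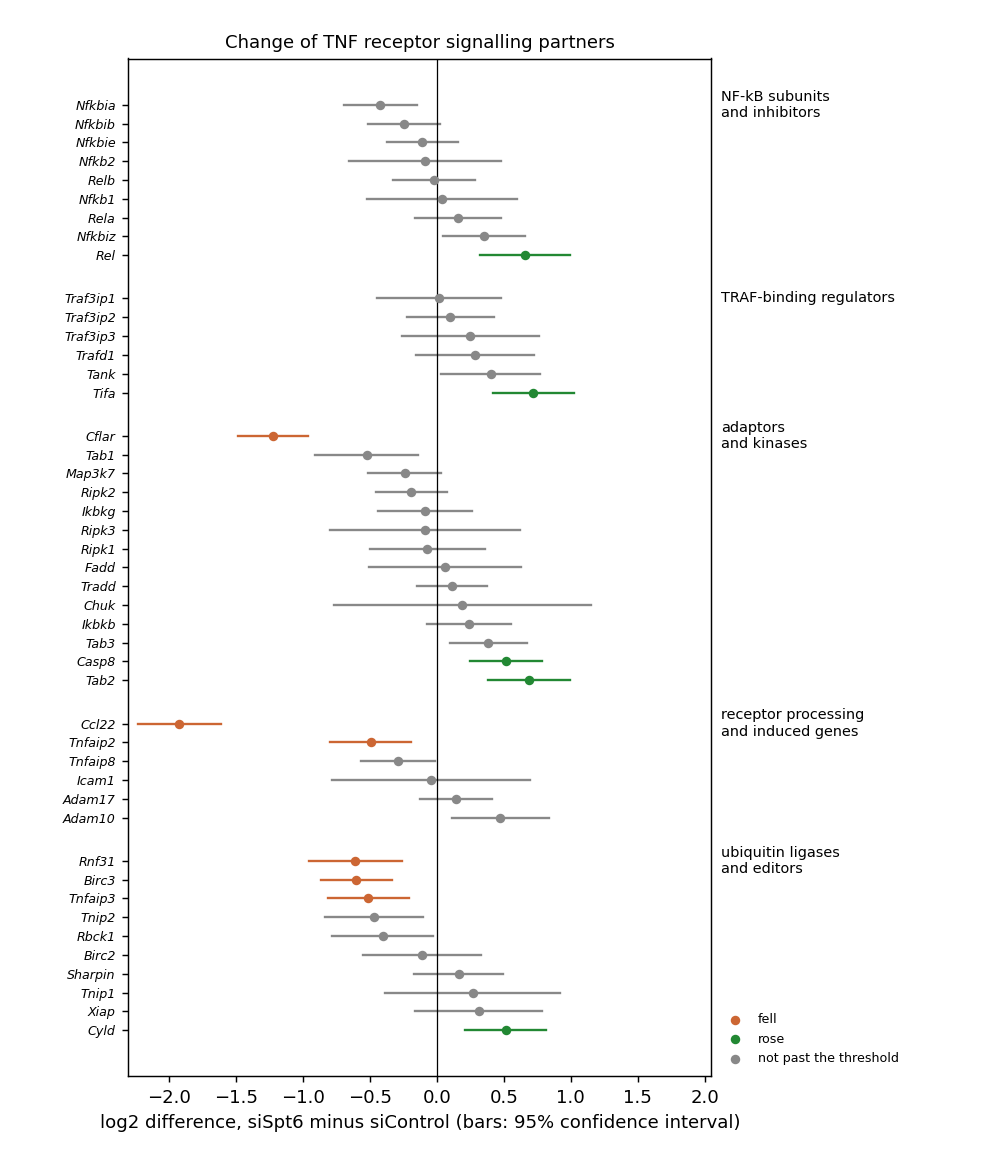
Log2 difference siSpt6 minus siControl of the 45 signalling partners, grouped by role, with bars for limma's 95% confidence interval (n = 3 arrays per group); orange fell, green rose and grey did not pass the threshold. Ccl22 at -1.92 and Cflar at -1.22 lie farthest to the left, and the 5 rises lie between 0.51 and 0.72.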

How the data were processed

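Expression was measured on 1-colour arrays, 1 per sample, with RNA amplified into amino allyl RNA and coupled to Cy5 after the protocol of the maker TORAY, per the labels' protocols. The authors deposited linear intensity values; for their background correction and scaling, no step is given in the sources used here. Array medians agreed within 0.00109 on the log2 scale, so deposited values were log2-transformed without further scaling or pseudocount. Blanks were missing. Probe symbols were updated through RefSeq names: 12622 probes carried a current symbol and 3947 an older symbol of 1 gene. Probes with values on at least 2 arrays in each group were fitted with limma 3.58.1 (lmFit, eBayes, two-sided) in R 4.3.3, with group as the only term and Benjamini-Hochberg adjustment over all of them; brightest probe per gene. Every member is named; those called, or at or above the median level (31.6), are given on every array, and partners where called; Supt6 is given whatever its test; Nfkbia, the called cell markers and the neighbours were named after values were seen. Members and lists were chosen with earlier results of these data known. The test was checked on simulated data, where it missed most true 2-fold changes and nearly all 1.5-fold changes. Far fewer probes were changed in that simulation than were called here, so the shares missed do not carry over to these data. Alternatives changed normalization, pseudocount, filters, variance model, replicate block, probe choice, thresholds and single arrays.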

Additional observations from a re-analysis of the deposited data

How the results depend on the processing

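The counts of 9 members that fell and 1 that rose were kept, as counts, by quantile, cyclic loess and median normalization, a pseudocount, complete probes, at least 1 value per group, array weights, a trended and robust eBayes, the mean of probes and the 1.5-fold rule. The replicate block, tried because the groups share replicate numbers, also gave 9 and 1. Same-numbered arrays deviated together with correlations of 0.351, 0.0759 and 0.262, and each array correlated best with its own number. Arrays of different number gave -0.292 to 0.0159. The labels give only the replicate number and do not say that arrays are pairs, so the main fit has no block. The block gave 1630 probes higher and 1964 lower against 1603 and 1922 without it, and left Rel, Tnfaip2 and Tnfaip3 short of the threshold (limma adjusted p = 0.0508, 0.0539 and 0.0588).

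Among bright probes 0 members rose, since Tnfrsf9 is too dim to enter. At an adjusted p under 0.01 in limma 0 members rose and 7 fell, 0 partners rose and 2 fell, and 649 probes rose and 705 fell. The partners that rose were 8 after quantile normalization, 8 among bright probes and 3 at 1.5-fold, against 5. Leaving out 1 array gave 0 to 1 members that rose and 7 to 9 that fell, 2 to 3 partners that rose and 3 to 5 that fell, and 1047 to 1124 probes higher and 1052 to 1421 lower. Both probe counts were lowest without siControl replicate 1, and the count lower also dropped by over 1.5 times without siControl replicate 2 (1106) and without replicate 1 (1232) or 2 (1054) of siSpt6. Without siSpt6 replicate 2 the member that rose was not Tnfrsf9, which lost its call there, but a dim member not called with all arrays. Supt6 passed the threshold after cyclic loess (-0.42, limma adjusted p = 0.0491), and leaving out 1 array gave -0.47 to -0.29.

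Among the members called or at or above the median level, signs turned only for those that were never called. Traf2 was 0.073 after quantile normalization and 0.079 after cyclic loess. With 1 array left out the lowest and highest log2 differences were -0.032 and 0.416 for Tnfrsf23, -0.218 and 0.050 for Ltbr, -0.088 and 0.246 for Tnfrsf12a, -0.388 and 0.120 for Tnfrsf18, -0.254 and 0.178 for Tnfrsf26, -0.129 and 0.057 for Traf2, -0.146 and 0.191 for Traf3, and -0.375 and 0.0017 for Traf4. Apart from the bright-probe filter and single arrays, the cause of a moved value was not tested. No background signal or detection limit accompanies the intensities, which leaves changes of dim probes uncertain.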
